A study of Mus musculus with 4 samples.

Results

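The genes described here are the interferon-induced genes and the interferon regulatory factors (IRFs) of mouse, as read in naive and memory CD8 T cells. They were chosen by gene symbol: probe sets with a single annotated symbol that begins with Ifi, Irf, Isg, Oas, Gbp, Irgm, Mx1, Mx2 or Tgtp, or that is Igtp, Iigp1, Usp18, Rsad2, Eif2ak2, Bst2 or Adar. This gave 36 of 13069 gene probe sets and 34 of 6137 named genes. On the A chip 32 of these probe sets read 31 genes, on the B chip 4 probe sets read 4 genes, and only Ifi204 was read on both. No probe set with a single symbol read a Tgtp gene or Bst2.

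Both groups were B6.2.16 CD8 T cells, which carry a transgenic T cell receptor for the male HY antigen, from female RAG1-deficient mice, which form no T or B cells with other receptors. Naive cells, stated to be more than 85% pure, were lymph node cells. Memory cells began as splenocytes of such mice cultured with HY peptide for 4 days. They were moved into female RAG1-deficient hosts, which have no T or B cells of their own but keep macrophages, dendritic cells and NK cells. They were recovered with magnetic beads from spleen and lymph nodes after 200 days, as a preparation stated to be more than 80% pure. The sources used here give neither ages nor how many animals were pooled. The organ, culture, transfer, time and sorting all differ together between the groups, and their parts in any difference cannot be told apart.

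Interferons are secreted proteins that warn cells of infection. Type I interferons act through the receptor chains Ifnar1 and Ifnar2, and interferon gamma through Ifngr1 and Ifngr2. Both use JAK kinases and STAT factors. Promoters of type I target genes often hold the interferon-stimulated response element, and those of interferon gamma targets the gamma-activated site. IRF proteins bind sequences related to the first element, and IRF7 and IRF1 are themselves induced by interferons. The target genes encode sensors of viral nucleic acid, enzymes that act on it, GTPases that attack viruses and vacuoles of intracellular microbes, and the ubiquitin-like modifier ISG15.

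The series held 4 Affymetrix arrays, with 1 memory and 1 naive array on each of 2 chips, so no value has a replicate, an error or a p-value. Every difference below is a difference between 1 pair of arrays, described by its size. Values are scaled intensities in arbitrary units. On the B chip values under a noise floor of 423 were raised to it, so a fold formed with such a value is a lower bound. On the A chip only the memory array is used, with its own noise limit of 184. The naive A values did not follow their gene names: across 398 genes read on both chips they had a Spearman correlation of 0.072 with the naive B values, whereas the memory A values had 0.45 with the memory B values. These correlations are across genes, which are not independent replicates and share their arrays. Among T cell markers, Cd3d read 959 in memory and 1115 in naive on the B chip, Cd3e read 316 on the memory A array, and Cd8a read 498 in memory and 352, under the floor, in naive. Thy1 read 2848 in memory and 6184 in naive. Cd3g (254 and 502) and Zap70 (221 and 424) were under the floor in memory alone. Cd2, Cd247 and Cd4 were under the floor on both B arrays, and Cd5 and Cd6 were under the limit on the memory A array.

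Memory and naive cells could be compared for 4 of these genes, and all 4 had the higher intensity in memory. The ubiquitin-like modifier Isg15, which is attached to proteins during viral infection, read 2560 in memory and 355 in naive. The naive value lay under the floor, so Isg15 was at least 6.06-fold higher in memory. Ifi204, a nuclear DNA sensor of the PYHIN family, read 938 in memory and 110, under the floor, in naive, which made it at least 2.22-fold higher. Ifi47, a GTPase of the immunity-related family, was the only one of the 4 above the floor on both arrays, with 1154 in memory and 786 in naive. Its log2 ratio of 0.55, or 1.47-fold, did not reach 2-fold. Oas1g, of the enzymes that make 2'-5' oligoadenylate on double-stranded RNA and so activate RNase L, read 445 in memory, just above the floor, and 179 in naive, under it. Its log2 ratio of at least 0.073 leaves the size of its difference undetermined.

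**Figure D1:**
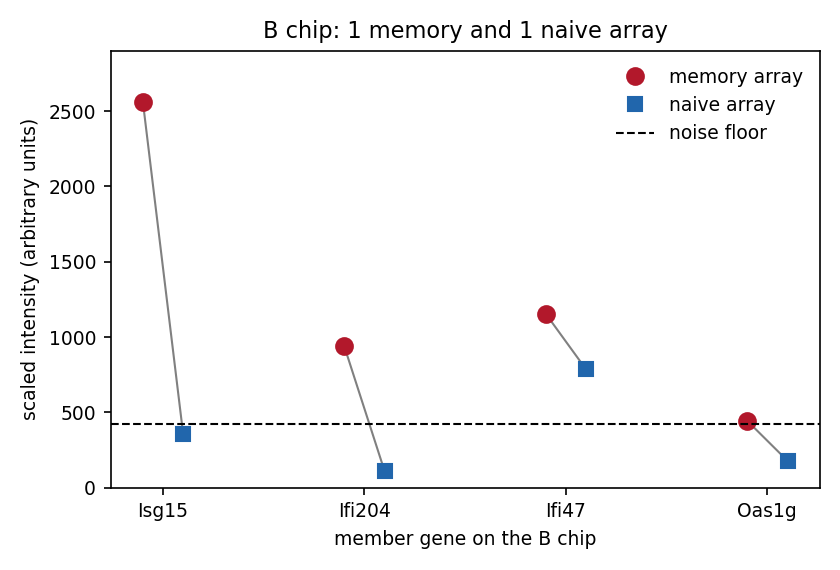
Scaled intensity (arbitrary units) of the 4 member genes on the B chip, with circles for the memory array, squares for the naive array and a dashed line at the noise floor of 423. Each point is 1 array. The memory value is the higher one for all 4 genes, and only Ifi47 has both values above the floor.

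To be called, a gene needed a ratio of 2-fold or more and a reading of 2 times the floor or more on its brighter array. By this rule 2 of the 4 genes were higher in memory (Isg15 and Ifi204) and 0 were lower, where 8.87% of the 462 measured genes on the B chip were higher and 8.66% lower. The median log2 ratio was 0.85 over the 4 genes and -0.12 over all measured genes. For 3 of the 4 the memory array alone put the gene above the floor, so their ratio could only be positive, and neither the count nor the median supports a direction. Across measured genes of the B chip 39.6% had a ratio above 1. The call of Ifi204 was lost when the floor was doubled, to a log2 ratio of at least 0.15, and its probes are of the sequence-family class, which can pick up related genes too. Isg15 stayed past 2-fold under each scaling and floor tried, and its smallest log2 ratio, at least 1.60, came with the doubled floor. With a naive value under the floor it had no value when both arrays had to be above it.

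**Figure D2:**
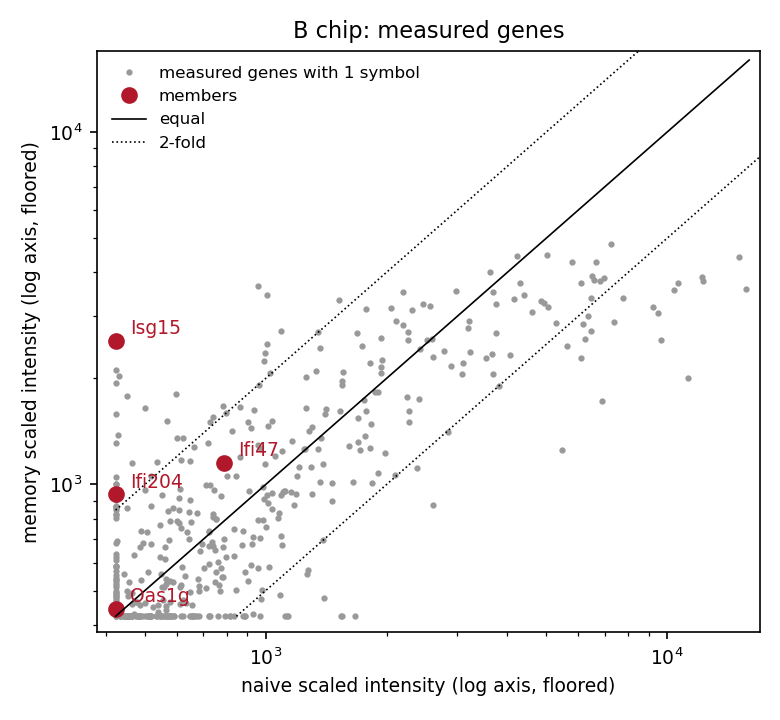
Memory against naive scaled intensity of the measured B-chip genes with 1 symbol, both on log axes with values under the floor of 423 set to it, with lines for equality and 2-fold. The 4 member genes are in red: Isg15 and Ifi204 lie on the left edge above the 2-fold line, Ifi47 lies between the lines and Oas1g lies in the lower left corner.

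Markers of other cells were read in the same 2 preparations. Of 13 measured macrophage and monocyte markers, 7 were higher in memory and 0 lower, among them Mpeg1 (3665 against 954) and the growth factor receptor Csf1r (2723 against 1090). Over all 462 measured genes of the B chip 8.87% were higher and 8.66% lower. Without sequence-family probe sets 4 of 10 macrophage and monocyte markers were higher (32 of all 346 genes). Of the 13, 2 were higher with a 3-fold threshold (12 of all 462) and 5 with the doubled floor (15 of all 249). With intensity-dependent normalization 9 were higher (45 of all 462), and with quantile normalization 10 (52 of all 538). The summed level of the 15 such markers on the chip was 34406 in memory and 19964 in naive, and the macrophage surface protein Adgre1 was above the floor in both (971 and 613). Macrophages express many interferon-induced genes, and the part of these cells in the Isg15 and Ifi204 values was not tested. Of 6 measured dendritic cell and MHC class II genes 2 were higher, H2-Ab1 (2500 against 1009) and H2-DMb1 (1503 against 728), and 1 was lower, Cd74 (3068 against 9507). Their median log2 ratio was 0.37, against -0.12 over all measured genes. The summed level over the 7 on the chip was 12846 in memory and 16775 in naive, and Cd74 was the largest part of the naive sum. Of 5 measured T cell markers 1 was lower and 0 higher, with a summed level over 8 of 5330 against 9185. Of 3 measured NK cell markers the granzyme Gzma was lower (1405 against 2848) and 0 were higher, with a summed level of 1786 against 3912, and Klra4 and Klra8 were under the floor in memory. The B cell list had 1 measured gene of 3, Ighm (1007 against 1836), which did not pass 2-fold, and Cd79a and Pax5 were under the floor in both, with a summed level of 980 against 1885. Of 4 measured erythroid markers 1 was higher (Alas2, 1944 against 183, which is under the floor) and 2 lower (Hba-a1, 2007 against 11296, and Hbb-b2, 2290 against 6105), with a summed level of 6995 against 18198. The part of these cells in the values of the 4 genes was not tested either. In preparations of mixed cells, fewer cells of a type and less RNA per cell cannot be told apart. Lower calls also depended on the scaling: 40 of all 462 measured genes were lower, but 20 of 462 with intensity-dependent normalization. The values of Cd74, Thy1, Gzma, Hba-a1 and Hbb-b2 are given here with trimmed-mean scaling alone. The summed levels, in which the brightest genes weigh most, are of that scaling too.

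The other 30 genes were read on the A chip alone, where the memory array gives a level but no comparison. In the memory preparation 24 of the 31 A-chip genes lay above the noise limit, or 77.4%, where 29.5% of the 4775 A-chip genes with a symbol did. Above 2 times the limit were 14 of 31 (45.2%), against 15.0% of all genes, and above 4 times the limit 8 of 31 (25.8%), against 6.01%. The median level was 350 over the 31 genes and 78.9 over all. Nearly all of them (27 of 31) were read by a probe set of class s, whose probes are shared by transcripts of like sequence. Within that class 21 of 27 were above the limit, where 30.7% of all genes of the class were. These shares describe 1 array and do not say whether naive cells carried the same transcripts.

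**Figure D3:**
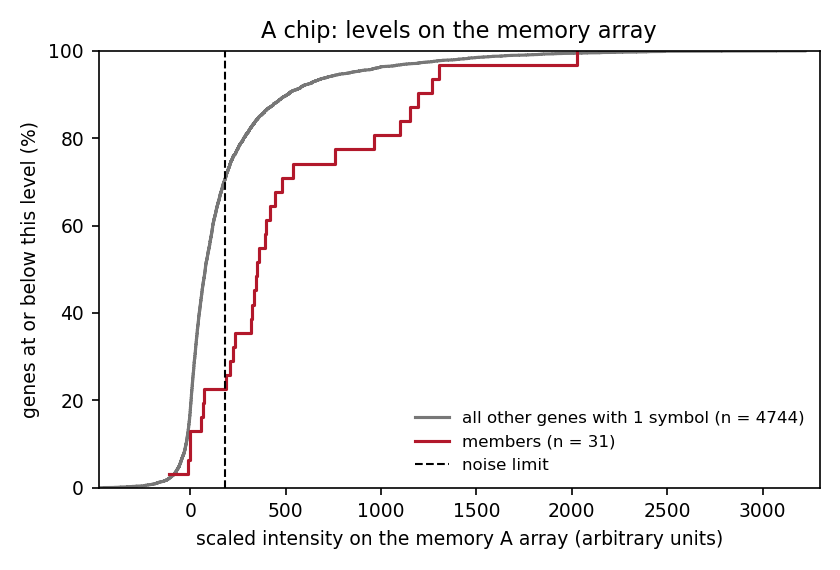
Cumulative share of genes (%) at or below each scaled intensity on the memory A array, for the 31 member genes and for the 4744 other genes with 1 symbol, with a dashed line at the noise limit of 184. The member curve lies to the right of the other: 77.4% of members are above the limit, against 29.2% of the other genes.

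Of the 8 IRF factors, 5 were above the limit on the memory A array, where 29.5% of all A-chip genes were. Irf1, induced by interferon gamma and an activator of MHC class I and GTPase genes, read 1268, and Irf7, the factor that amplifies type I interferon production, read 1153. Both were over 4 times the limit. Irf2, which binds the same sites as Irf1 and often opposes it, read 446, Irf8, a factor of macrophages and dendritic cells that activated T cells can also carry, read 389, and Irf5, active downstream of Toll-like receptors, read 222. Irf9, which binds the interferon-stimulated response element, read 70.9, and Irf3, which is present before infection and is activated by phosphorylation, read -11.0. Irf4, induced by T cell receptor signals, read -113. These 3 and the IRF2-binding corepressor Irf2bp1 (54.9) were not above the noise, which sets only an upper bound on their level.

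Of the 3 sensors and enzymes that act on RNA, 2 read close to the limit and 1 well under it. The RNA helicase Ifih1, a sensor of long double-stranded RNA, read 211, and the RNA editing enzyme Adar read 187, barely above 184 and with a sequence-family probe set. Eif2ak2, the kinase that halts translation on binding double-stranded RNA, read 64.9. All 3 IFIT proteins, which bind viral RNA ends and block its translation, were above the limit. Ifit3 read 1101, Ifit2 read 325, and the 2 probe sets of Ifit1 read 350 and 285. Usp18, the protease that removes ISG15 from proteins and also restrains the type I receptor, read 360.

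The GTPases were present in the memory preparation in each of their families. The dynamin-like Mx1 and Mx2, of a family of antiviral GTPases, read 335 and 482. Of 4 guanylate-binding proteins, which act on vacuoles of intracellular microbes, Gbp7 read 964, Gbp2 read 418 and Gbp3 read 237, whereas Gbp2b was at the noise with -2.00. Of the immunity-related GTPases, Iigp1 read 759, Irgm1 read 398 and Igtp read 345, all above the limit. Ifi47, of the same family, was the one read on the B chip.

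The PYHIN proteins bind DNA in the nucleus and cytosol. Ifi209 read 1194, Ifi204 read 320 and Ifi202b read 0.998, at the noise. Ifi204 was thus above the noise in the memory preparation on both chips, with 320 on A and 938 on B, and both probe sets are of the sequence-family class. Chips were scaled apart, so these 2 values are not compared in size. Rsad2 (viperin), an enzyme of the endoplasmic reticulum that makes a chain-terminating nucleotide, read 2030, which is 11.0 times the limit. Ifi27 read 1304 and Ifitm10, a member of the family by its name, read 539.

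**Figure D4:**
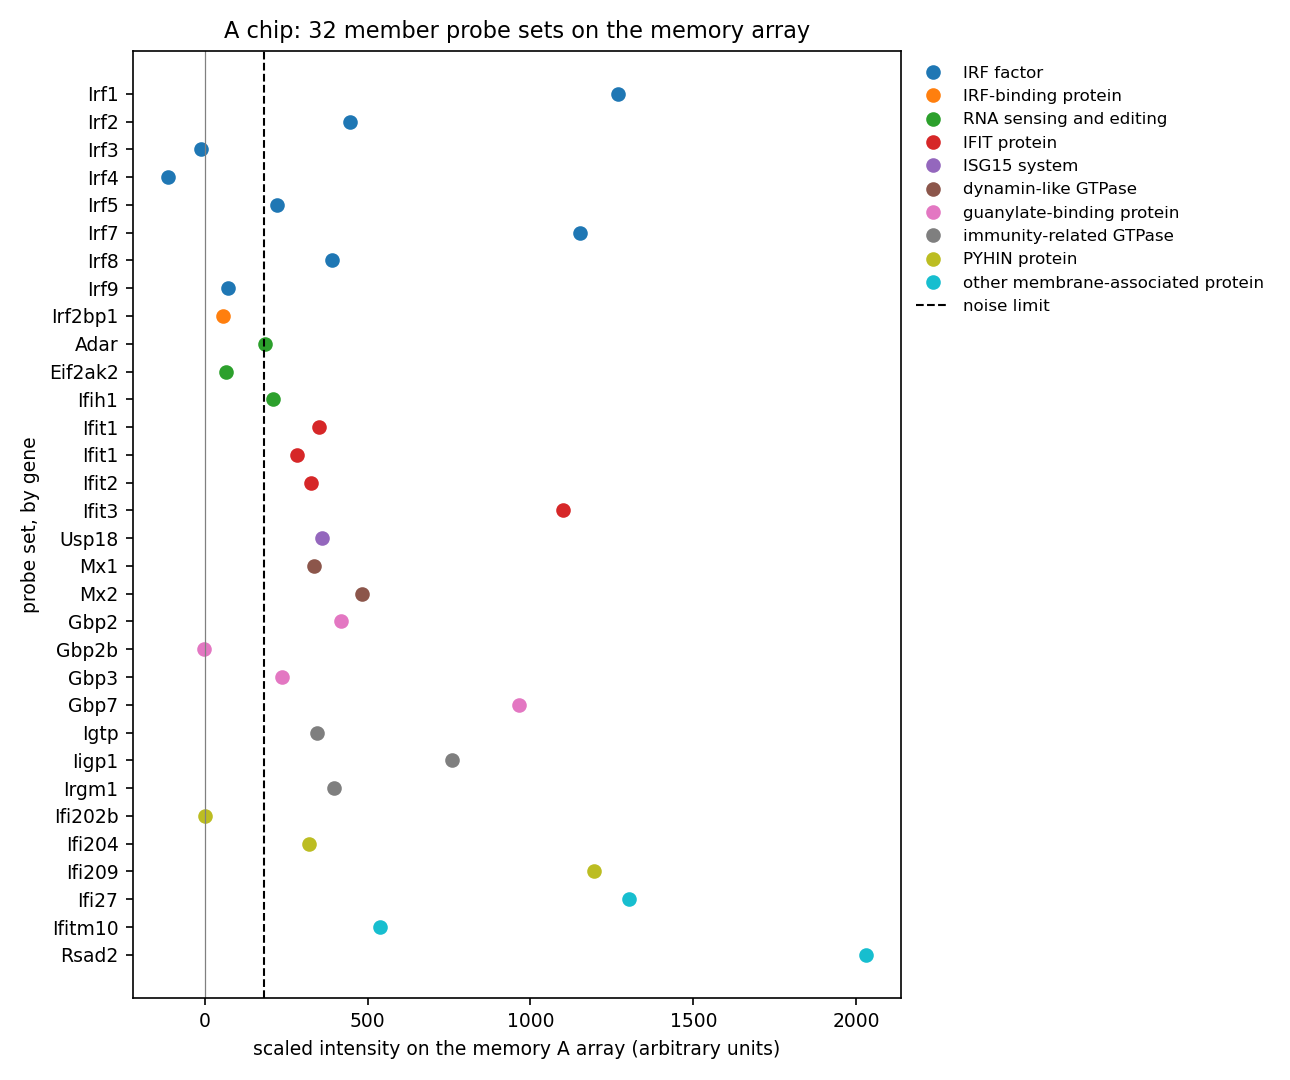
Scaled intensity (arbitrary units) of the 32 member probe sets on the memory A array, by gene and coloured by role, with a dashed line at the noise limit of 184. Points left of the dashed line are not above the noise, among them Irf3, Irf4, Irf9, Eif2ak2, Gbp2b and Ifi202b, and the Rsad2 point lies at 2030.

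On the same memory A array 8 of 13 macrophage and monocyte markers were above the limit, where 29.5% of all A-chip genes were. The 13 markers had a median of 597, and among those above the limit were lysozyme Lyz2 (2004) and Cd68 (597). Mpeg1 (95.8), Lgals3 (60.9), Fcgr1, Marco and Mertk were not above it, although Mpeg1 and Lgals3 were called higher in memory by their B-chip probe sets. Of 5 T cell markers 3 were above it, with a median of 186 and none over 2 times the limit. Of 4 dendritic cell and MHC class II genes 3 were above the limit, with a median of 643, among them H2-Aa (3227). Above the limit were also 1 of 3 NK cell, 2 of 5 B cell and 2 of 3 erythroid markers. Their list medians were 96.8, 133 and 301, in that order, and none was over 2 times the limit. How much of the interferon-induced signal came from any of these cells was not tested.

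The pathway around these genes was read from lists chosen with earlier results of these data known. No interferon gene was above the noise on any array used: 0 of 7 on the B chip in either group (12.9 to 196 in memory, -23.2 to 342 in naive) and 0 of 3 on the memory A array, where Ifnb1 read 85.9 and Ifng 101. Most genes were not above it either: of all 1760 B-chip genes 1394 were under the floor in memory and 1348 in naive. On the memory A array 29.5% of all genes were above the limit. With so few interferon genes, these counts are not read as a result about interferons. Of 13 receptor and JAK-STAT genes on the memory A array 7 were above the limit, where 29.5% of all A-chip genes were. The interferon gamma receptor chain Ifngr1 read 1303, and the type I chains Ifnar1 and Ifnar2 read 147 and 53.9, under the limit. The other gamma chain, Ifngr2, was read on the B chip alone, with 17.9 in memory and 49.4 in naive, both under the floor. On the memory A array the kinase Jak1 read 721 and the kinase Jak2 read 123, under the limit. Stat3 read 2013, and the feedback inhibitors Socs3 and Socs1 read 671 and 141, the latter under the limit.

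Of all A-chip genes with a symbol 29.5% were above the limit on the memory array, with a median of 78.9. Other interferon-responsive genes were above it in 20 of 26 cases, with a median of 432. They included the class I chain H2-K1 (2347), the peptide loading factor Tapbp (1900), the ISG15-activating enzyme Uba7 (1462), the nucleotide hydrolase Samhd1 (1276) and the chemokine Ccl5 (1267). The chemokine Cxcl9, induced by interferon gamma in macrophages, read 22.0, under the limit, and the chemokine Cxcl10 read 311, above it. On the B chip 5 of 7 genes of this list were measured, 0 of them higher and 1 lower in memory, with a median log2 ratio of 0.54. Over all measured B-chip genes 8.87% were higher and 8.66% lower, with a median of -0.12. The immunoproteasome subunits Psmb9 (963 against 502) and Psmb8 (1467 against 1012) had log2 ratios of 0.94 and 0.54, and the secreted glycoprotein Lgals3bp (1172 against 614) had 0.93. Psmb9 passed 2-fold with median-ratio scaling (1.09) and with intensity-dependent normalization (1.01), and Lgals3bp with the former (1.08). The 2 class I chains went the other way, with log2 ratios of -1.91 for H2-D1 (2572 against 9639) and -0.79 for B2m (3812 against 6574). H2-D1 was no longer called with intensity-dependent normalization (-0.69), and B2m turned positive with it (0.44) and with quantile normalization (0.55).

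Of the sensors and adaptors that start interferon production, the B chip measured only Myd88, the adaptor of most Toll-like receptors. It read 849 in memory and 398, under the floor, in naive, at least 2.01-fold higher, and the call was lost with the doubled floor. On the memory A array the NF-kappaB subunit Rela read 946 and the kinase Irak1 270, above the limit, and Traf6 (69.9) and the RNA receptor Tlr7 (-19.0) were not.

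Promoters were searched for 2 interferon-related motifs. The choice by symbol used no sequence, but many of these symbols name genes by their induction by interferon. A high share of matches was therefore to be expected from the choice. RefSeq promoter sequences of build GRCm38.p6, 250 bases before to 50 bases after each annotated start, were on hand for 28 of the 34 genes. The core of the interferon-stimulated response element, GAAA, any 2 bases and GAAA again, was searched on both strands with overlapping matches counted. It was in at least 1 promoter of 14 of the 28 genes, where 3.99% of all 27025 genes in the table and 4.32% of the genes on these chips had a match. The gamma-activated site, TTC, any 3 bases and GAA, which reads the same on both strands, was found for 10 of 28 genes (35.7%), where 9.55% of all genes had a match. Both motifs occurred together in 4 genes and 8 genes had neither. In 12 genes a match to the element core lay before the start site. Some genes with the core are related neighbours, such as Gbp2, Gbp2b, Gbp3 and Gbp7 on chromosome 3, and are not independent cases. A match describes the letters only.

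Windows around the matches are printed for 6 genes compared or read above the limit, chosen after their values were seen, and Ifi47 and Irf7 had no match. In the windows below, which end before the start site and are written 5' to 3' on the strand of the gene, capitals mark the element core. Isg15 had 3 overlapping matches from position -78 to -57, counted back from its start site (minus strand, chr4:156200845-156200926), and Oas1g had 2 from -18 to -3 (minus strand, chr5:120887614-120887661). Ifit3 (plus strand, chr19:34583343-34583446) and Ifit1 (plus strand, chr19:34640755-34640843) each had 2 separate matches on the opposite strand, seen here as TTTC, 2 bases and TTTC. Gbp7 (plus strand, chr3:142530253-142530322) and Rsad2 (minus strand, chr12:26456533-26456602) had 1 each.
Isg15: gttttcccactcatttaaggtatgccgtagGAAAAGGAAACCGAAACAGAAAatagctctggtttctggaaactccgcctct
Oas1g: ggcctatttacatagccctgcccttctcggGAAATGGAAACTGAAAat
Ifit3: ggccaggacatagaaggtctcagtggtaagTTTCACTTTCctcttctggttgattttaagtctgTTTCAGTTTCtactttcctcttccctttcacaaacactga
Ifit1: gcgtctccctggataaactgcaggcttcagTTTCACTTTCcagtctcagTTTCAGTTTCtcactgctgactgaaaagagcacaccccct
Gbp7: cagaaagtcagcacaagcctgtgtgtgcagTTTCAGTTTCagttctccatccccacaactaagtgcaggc
Rsad2: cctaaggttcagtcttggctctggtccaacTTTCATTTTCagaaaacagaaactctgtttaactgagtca

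Among the role groups, all 4 guanylate-binding proteins, 2 of 3 IFIT genes and 2 of 3 immunity-related GTPases had the element core, against 1 of 8 IRF factors (Irf2) and 0 of 2 PYHIN genes. Gbp2b, which was at the noise in memory, had the core as well as Gbp7. Of the genes above the limit on the memory A array 10 of 18 had the core, and of those not above the limit 2 of 7. For the gamma-activated site the same counts were 7 of 18 and 3 of 7. Whether either motif goes with the level was not tested. The gamma-activated site was found in 3 of 8 IRF factors (Irf1, Irf2 and Irf8). The Irf1 window (plus strand, chr11:53769894-53769962) and the Igtp window (plus strand, chr11:58199481-58199549) are given with that site in capitals, and in Igtp the element core follows it within a few bases.
Irf1: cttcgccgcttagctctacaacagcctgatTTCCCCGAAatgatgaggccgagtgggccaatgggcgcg
Igtp: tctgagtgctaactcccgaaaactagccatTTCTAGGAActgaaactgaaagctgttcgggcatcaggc

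**Figure D5:**
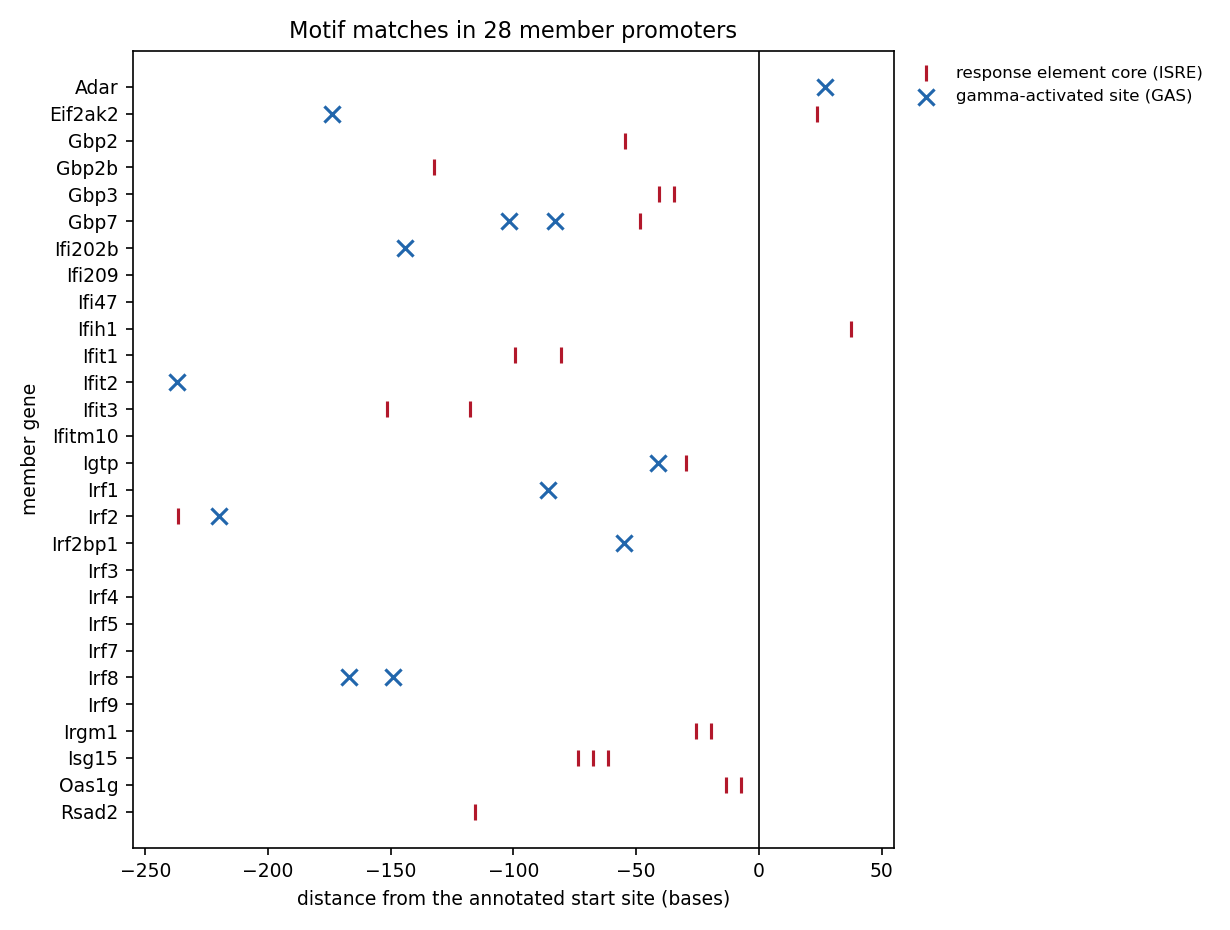
Midpoints of motif matches in the promoters of 28 member genes, by distance from the annotated start site (bases, 0 at the start site), with bars for the element core and crosses for the gamma-activated site. Rows without a mark are genes with neither. Isg15 has 3 bars between 50 and 100 bases before the start, and Irf7 has no mark.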

How the data were processed

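Naive and memory CD8 T cell RNA was hybridised as cRNA, per the labels. Each deposited value is an intensity (a whole number, some below 0) of 1 probe set. The sources used here name no software, settings or build. The 55 control probe sets of each chip were left out. Within a chip, arrays were brought to the mean of their 2% trimmed means (factors 0.993 to 1.01). Noise was measured by the values below 0, as percentile 95 of their size: on the noisier array for the B floor, and on the memory array for the A limit. A gene was read by its brightest probe set. Symbols came from the platform annotation, and all 36 member Entrez numbers were found in a GRCm38.p6 RefSeq table with 0 symbols changed. Every B-chip member and every member above 2 times the A limit was to be named, others by role. The members and lists were chosen with earlier results of these data known. The procedure was tested on simulated data, with changes planted only in probe sets bright on the naive array. The test therefore did not cover calls with a naive value under the floor, such as those of Isg15 and Ifi204. Alternatives were other scalings, floors, thresholds and probe-set choices, and 1 more, without sequence-family probe sets, was chosen after seeing the data. Python 3.11.15, numpy 2.4.6, pandas 2.3.3 and statsmodels 0.14.6 (lowess span 0.4) were used. The number of arrays limits the precision.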

Additional observations from a re-analysis of the deposited data

How the results depend on the processing

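Of 34 recomputed log2 ratios of the 4 B-chip genes, 32 kept their side of 2-fold. Ifi47, the only one with both values above the floor, ranged from 0.45 to 0.70. With the naive value of the other 3 raised to the floor, their ratios could not turn negative, so their sign says nothing about stability. Doubling the floor left 1 gene higher (15 of all 249 measured genes were), took Ifi204 to 0.15 and left Oas1g without a value, and halving it brought Oas1g to 1.07, past 2-fold. With a 3-fold threshold 1 gene was higher (12 of all 462), without sequence-family probe sets 1 (32 of all 346), and 0 when both arrays had to be above the floor (24 of all 316), which left Ifi47 alone. In the list of other interferon-responsive genes, intensity-dependent normalization gave 1 higher and 0 lower, where 45 of all 462 measured genes were higher and 20 lower. On the memory A array 24 of 31 genes were above the limit when it was halved (46.7% of all genes), 20 of 31 with the limit of the noisier array (19.3%), 22 of 29 without sequence-family probe sets (27.8%) and 14 of 31 with it doubled (15.0%). With only probe sets without a class letter 2 genes were left, 1 of them above the limit (17.5% of all such genes), and no B-chip member was left, so that setting gave no B value. No paired analysis was possible because each group has 1 array per chip and the labels carry no replicate numbers. For the same reason leaving out an array was not possible.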

Other observations

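On the A chip 4 probe sets were annotated to more than 1 gene, with at least 1 symbol that fits the choice, and were therefore no members. On the memory A array they read 1526, 506, 479 and -0.998, so that 3 of the 4 were above the noise limit of 184. They are not named here because a signal from such a probe set cannot be given to 1 gene.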
